A study of Heliocidaris erythrogramma with 5 samples.

Results

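Single-cell libraries made from dissociated larvae of Heliocidaris erythrogramma, a sea urchin, were compared between 48 hours post fertilization (hpf) and the next sampled age, labelled 56 hpf. All cells with over 200 detected genes, under 10000 unique molecular identifiers (UMIs, one per captured RNA molecule) and under 4000 genes were taken, which gave 4080 cells at 48 hpf and 4106 at 56 hpf, 8186 of the 26740 kept cells of the 5 larval libraries. The study made 1 library per age, the ages being 36, 42, 48, 56 and 60 hpf, by dissociating untreated whole larvae, fixing the cells in methanol and counting 3' ends of transcripts in droplets. No genotype or treatment separated the groups, and how many larvae or parents went into a library was not given in the sources used here. The library labelled 56 hpf carries 54 hpf in its file name and in the study's methods, so the step may span a shorter time than the labels say. With 1 library per age, no difference between the ages could be set against replicates, and every interval below covers counting error only.

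Larvae of this species do not feed. They live on maternal stores and build the juvenile within an imaginal adult rudiment on the left side of the body, where tube feet (podia), adult ectoderm and the adult nervous system arise while larval structures such as the ciliary band are still present. Nodal signalling sets the oral side of the larva in sea urchins, pigment cells make polyketide pigments and express immune genes, and blastocoelar cells are immune cells of the body cavity. Neurons of sea urchin larvae arise from progenitors that express achaete-scute, soxC and other proneural regulators before they switch on transmitter genes.

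The study stained larvae of this age by hybridization chain reaction, in which pairs of short DNA probes bind side by side on a transcript. One pair is given here for dynlc2, which the study placed at the tips of podia and which had the largest rise among the stained genes between the libraries, and one for foxq2, a marker of the animal pole, which had the lowest ratio. Capitals mark the 25 bases made to pair with the transcript, and lower case the hairpin initiator and its 2-base spacer.
dynlc2 first probe: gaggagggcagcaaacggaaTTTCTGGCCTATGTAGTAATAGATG
dynlc2 second probe: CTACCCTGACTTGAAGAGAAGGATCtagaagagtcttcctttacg
foxq2 first probe: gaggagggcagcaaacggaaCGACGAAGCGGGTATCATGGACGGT
foxq2 second probe: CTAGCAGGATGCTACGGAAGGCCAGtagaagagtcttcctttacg
The dynlc2 set held 20 probes and the foxq2 set 34. The bases pairing with dynlc2 in this pair were 36% and 48% G or C, against 60% in both foxq2 probes.

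The 48 hpf library held 5707350 UMIs in kept cells and the 56 hpf library 4193645, with medians of 1119.5 and 814 UMIs per cell. The 56 hpf library was the shallowest of the 5 per cell. The 2 libraries shared 7 cell barcodes, within the 4 to 12 shared by any pair of libraries. UMIs were summed over cells and scaled to CPM, the counts of a gene per 1000000 UMIs of its library, and 10355 genes with a mean of at least 5 CPM over the 2 ages were compared as ratios of CPM, each with an exact 95% counting interval. In bulk sums of this kind, more cells of a type and more RNA per cell cannot be told apart, so shares of cells are given beside levels where they bear on a result.

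The median gene was 1.23-fold higher at 56 hpf on the CPM scale (log2 0.30), beside a fall in the share of UMIs taken by ribosomal protein genes. With those genes left out of both totals the log2 median was 0.22. Changes are therefore also read relative to the median gene on the full totals. A gene had to be 2.47-fold higher in CPM to be 2-fold above the median gene. On CPM, 758 genes (7.32% of those compared) passed 2-fold, 670 (6.47%) with the higher level at 56 hpf and 88 (0.85%) with the lower. The whole counting interval lay beyond 2-fold, here called beyond counting error, for 172 genes (1.66%), of which 135 were higher (1.3%) and 37 lower (0.357%). After centring on the median, a scaling added after the data were seen, 491 genes (4.74%) passed 2-fold, 256 of them higher (2.47%) and 235 lower (2.27%), and beyond counting error the split became 62 higher and 87 lower. With median of ratios or TMM factors the split was 231 higher and 254 lower. The excess of higher genes on CPM was thus not kept by these scalings, and "rose" and "fell" are used below for genes at least 2-fold apart on CPM, with the named genes that stay under 2-fold relative to the median gene given as such. The counts of list members below are read against the 6.47% of all genes that rose and the 0.85% that fell.

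Of the 670 higher genes, 215 had no symbol or only a Hypp name (hypothetical protein). A steep rise was found among these, in features named Hypp_42, which were chosen for description after their values were seen. Hypp_42 HER_23042 went from 27 UMIs in 5 cells to 798 UMIs in 33 cells, and HER_23041 from 3 UMIs to 161 UMIs in 29 cells. The 3 top cells at 56 hpf held 299 and 62 of these UMIs. Summed over 4 features named Hypp_42, the level was 1.75, 1.51, 5.96, 230 and 195 CPM in order of age, so it stayed high at 60 hpf.

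Among genes with a functional name, several extreme ratios rested on single cells. PlgL2, named for plasminogen, had 6 UMIs at 48 hpf and 192 at 56 hpf, but 188 of the latter lay in 1 cell. Without the 3 cells with most of its UMIs in each library, its ratio turned from 5.44 to -0.14 on the log2 scale. Tmtc3, named for a transmembrane O-mannosyltransferase, was the mirror image, with 325 UMIs at 48 hpf, 313 of them in 1 cell, and 13 UMIs at 56 hpf in 13 cells. Its level was 2 to 3.63 CPM in the other 4 libraries and 56.9 CPM at 48 hpf.

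The same held for several other genes at the extremes. Strongylocin2, an antimicrobial peptide gene, had 174 of its 221 UMIs at 48 hpf in 1 cell, and its log2 ratio of -2.21 became 0.02 without its 3 top cells. Igcam/Igcam had 193 of 276 UMIs in 1 cell at 48 hpf, and YP30/FascL, named for a yolk protein, had 158 of 204. Taar7eL_3, a trace amine receptor gene by name, rose from 2 to 42 UMIs in 6 cells, of which 1 held 24. The log2 ratios of these 3 genes became -0.93, -0.80 and 0.86 without the top cells, so none stayed beyond 2-fold.

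Most calls were not of this kind. Of the 135 genes higher beyond counting error, 7 had over 50% of their 56 hpf UMIs in 3 cells, and 123 kept their whole interval beyond 2-fold after the 3 top cells were left out. Of the 37 lower genes, 5 had over 50% of their 48 hpf UMIs in 3 cells and 31 kept theirs. The median gene of the first set had 10.8% of its UMIs in its 3 top cells and that of the second 1.52%. The genes described from here on kept their direction without these cells unless stated.

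**Figure D1:**
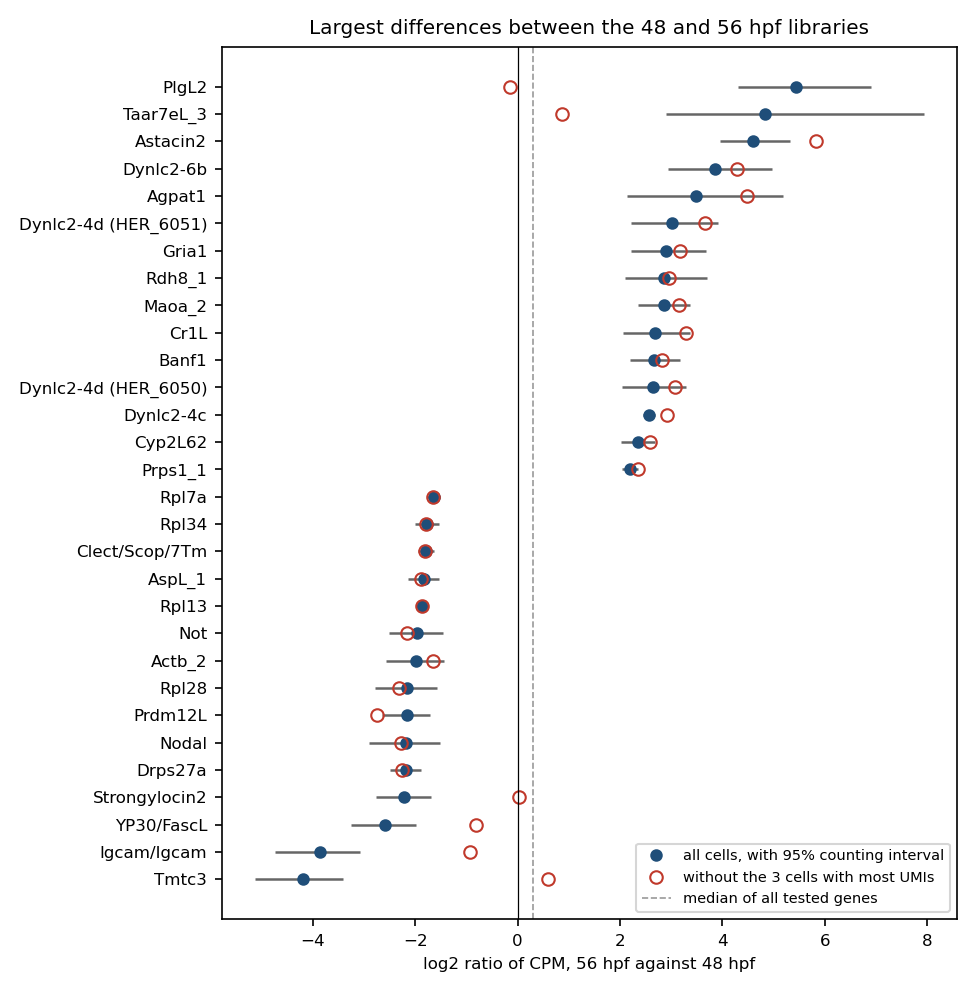
Log2 ratio of CPM at 56 hpf against 48 hpf (x axis) for genes beyond counting error that have a functional symbol (y axis), the 15 highest and the 15 lowest when ranked by the interval bound nearest to no change. Filled points show all cells with the 95% counting interval, open points the ratio without the 3 cells holding most UMIs of the gene in each library, and the dashed line the median of 10355 genes. The open points of PlgL2, Taar7eL_3, Strongylocin2, YP30/FascL, Igcam/Igcam and Tmtc3 lie within 1 unit of 0, and the other 24 genes stay near their filled points or farther out.

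Several dynein light chain genes rose steeply, in a small share of cells. Dynein light chains are small subunits of the motor complexes that move along microtubules in cilia and in the cytoplasm. Dynlc2-4c had 21.2, 26.8, 125, 743 and 491 CPM in order of age, so its level was highest at 56 hpf. It rose 5.94-fold from 48 to 56 hpf (95% counting interval 5.47 to 6.45, 714 and 3114 UMIs).

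The neighbouring copies moved the same way. Dynlc2-6b went from 1.75 to 25.5 CPM, and the pair of features named Dynlc2-4d went from 4.91 to 30.5 and from 2.63 to 21.2 CPM. All 3 were at 0 UMIs at 36 hpf and at or under 0.348 CPM at 42 hpf. These copies carry nearly the same name and successive identifiers (HER_6049 to HER_6052), so reads may have been split among them and each value is uncertain by itself. Summed over the 10 features named Dynlc2, the level went from 189 to 890 CPM (4.72-fold, 4.41 to 5.06) and was 588 CPM at 60 hpf. The most abundant other copy, Dynlc2-5b (HER_381), had 51.9 and 65.8 CPM, which is under 2-fold.

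The number of cells with Dynlc2-4c changed less than the amount in them. Before any thinning, Dynlc2-4c was found in 2.84% of cells at 48 hpf and 3.07% at 56 hpf. After each cell was thinned to 500 UMIs, to remove the difference in depth, 43 of 4080 cells (1.05%) and 85 of 3597 cells (2.36%) were positive, and a positive cell held a mean of 4.12 and 12.2 UMIs. Of the 85 positive cells at 56 hpf, 27% held the Dynlc2-4d copy HER_6050, against 0.11% of other cells. In other genes the same cells were enriched for PcolceL, named for a procollagen enhancer, in 26 of 85 (31%, Clopper-Pearson interval 21% to 42%, against 2.19% of other cells), for Hhex in 15, for Grem, a BMP antagonist, in 16 and for Bursicona in 10. At 48 hpf PcolceL was in 2 of 43 Dynlc2-4c cells (4.65%, 0.568% to 15.8%), and its interval did not overlap that at 56 hpf. These companion genes were picked by their enrichment after the values were seen. PcolceL was picked at 56 hpf, which favours a lower share at 48 hpf. Banf1, a chromatin-binding factor gene that rose 6.36-fold from 7.53 to 47.9 CPM (4.56 to 9.06), was in 15 of the 85 cells and in 1.17% of the others. That feature, HER_13588, is the less abundant of 2 Banf1 features, and the other, HER_18029, had 99.7 CPM at both ages.

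The other genes that the study stained at this age moved little. Onecut, a homeobox marker of the ciliary band, had 233 CPM at 48 hpf and 273 at 56 hpf. Hox7, a marker of posterior ectoderm, had 179 and 153, Lim1 168 and 150, Hmx 58.9 and 70.8, and Pks1, the polyketide synthase of pigment cells, 33.3 and 38.2 CPM. The ratios of these 5 lay between 0.855 and 1.2. FoxQ2_1 had 80.6, 48.2 and 83.5 CPM from 48 to 60 hpf, a ratio across the step of 0.598 (0.504 to 0.707) that was past 2-fold only relative to the median gene, and its positive cells went from 3.8% to 2.06% of thinned cells.

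Features sharing the name Egfi, an extracellular matrix protein of the rudiment ectoderm, moved in different directions. Egfi HER_16452 had 329 and 479 CPM (1.46-fold, 1.37 to 1.55) and reached 634 CPM at 60 hpf. Egfi HER_20850 had 569 and 385 CPM (0.678-fold, 0.638 to 0.719) and was back at 556 CPM at 60 hpf. A like split was seen for Fn3/Egf_2, another matrix gene that the study used as a rudiment marker. Feature HER_29039 rose from 38.2 to 97.5 CPM (2.55-fold, 2.16 to 3.02), while HER_20019 went from 945 to 515 CPM (0.545-fold, 0.518 to 0.573). The summed Egfi level, 955 and 915 CPM, showed neither movement. Near-identical copies can exchange reads, so the value of each feature is uncertain by itself.

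**Figure D2:**
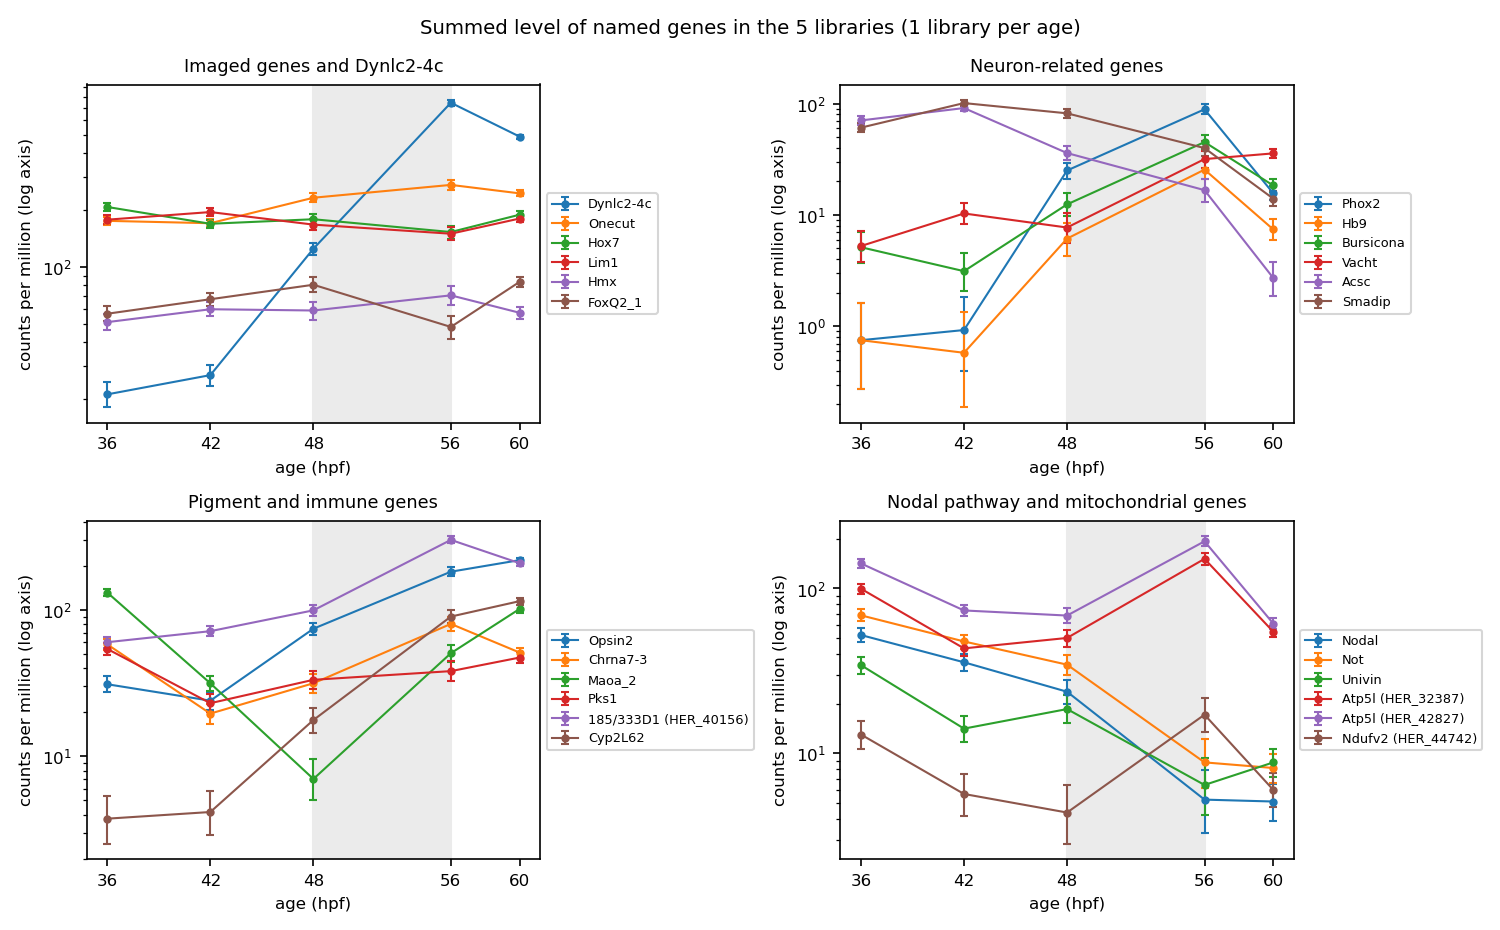
CPM (y axis, log scale) against age in hpf (x axis) for 24 named genes in 4 panels, with exact 95% Poisson intervals and 1 library per age; the step from 48 to 56 hpf is shaded. Dynlc2-4c climbs from 125 to 743 CPM while FoxQ2_1 dips from 80.6 to 48.2 CPM and the other stained genes stay nearly level. Phox2 and Hb9 peak at 56 hpf, Acsc and Smadip decline after 42 hpf, and Nodal and Not fall to a level they keep at 60 hpf. The mitochondrial genes Atp5l and Ndufv2 are higher at 56 hpf than at 42, 48 and 60 hpf. They are also higher at 36 hpf than at 42 hpf.

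Of 31 neural transcription factors compared, 4 rose (12.9%, where 6.47% of all genes did) and 2 fell (6.45%, against 0.85%), and relative to the median gene 4 were higher and 4 lower. Phox2, a homeobox factor of autonomic and branchial motor neurons in vertebrates, had 0.751, 0.927, 25.1, 88.7 and 15.7 CPM in order of age. It rose 3.54-fold from 48 to 56 hpf (2.91 to 4.32) and was low again at 60 hpf. Hb9, a motor neuron homeobox factor in vertebrates, had 6.13, 25.5 and 7.42 CPM at 48, 56 and 60 hpf. Brn1/2/4, a POU factor, had 2.98, 12.6 and 4.28 CPM, and Arxl, related to the aristaless homeobox factors, 1.58, 10.7 and 7.17 CPM. These were the 4 that rose, all of them beyond counting error, which does not cover the sampling of few cells. Hb9 lay in 11 and 22 cells at 48 and 56 hpf and Arxl in 7 and 18. At 56 hpf the 3 top cells held 34 of 107 Hb9 UMIs and 18 of 45 Arxl UMIs. Without the 3 top cells of each library the rises remained (log2 ratios 2.83 and 3.20). The 56 hpf library was the highest of the 5 for each of the 4.

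Acsc, the achaete-scute proneural factor, fell from 35.9 to 16.7 CPM (0.465-fold, 0.349 to 0.612) and stood at 2.72 CPM at 60 hpf. Smadip HER_39411, a zinc finger homeobox factor of neural progenitors, fell from 81.6 to 39.8 CPM and stood at 14.0 CPM at 60 hpf, while the other feature of that name, HER_39410, had 32.2 and 37.9 CPM. The study also lists Acsc and Smadip as markers of putative rudiment ectoderm. Thinned cells with at least 2 markers of that set made up 5.95%, 2.72%, 2.36% and 1.03% from 42 to 60 hpf, with overlapping intervals at 48 and 56 hpf. Which cells the falls lay in was not tested. SoxC, with 264 and 136 CPM, was just short of 2-fold on CPM (log2 ratio -0.96). Over the 31 factors the median log2 ratio was -0.06, which is 0.36 below the median of all genes, and 25 of the 31 lay below that median.

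Prdm12L, related to a vertebrate sensory neuron regulator, fell further, from 50.3 to 11.2 CPM, and stood at 2.72 CPM at 60 hpf. Its 287 UMIs at 48 hpf lay in 33 cells, 63 of them in 1 cell, and the fall remained without the top cells (log2 ratio -2.74 in place of -2.17).

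Among transmitter genes, Vacht, the vesicular acetylcholine transporter, rose 4.11-fold from 7.71 to 31.7 CPM (2.91 to 5.92) and kept 35.7 CPM at 60 hpf. Slc6a5-3, named for a glycine transporter, rose from 5.61 to 17.6 CPM. Bursicona, which encodes a subunit of a neurohormone known from arthropods, had 12.4, 45.1 and 18.4 CPM at 48, 56 and 60 hpf (3.62-fold, 2.74 to 4.83). Its UMIs lay in 16 and 36 cells at 48 and 56 hpf, with 71 of 189 in 3 cells at 56 hpf. AchE_9, an acetylcholinesterase by name, moved the other way, from 14.5 to 5.48 CPM (0.377-fold, 0.227 to 0.605). Of 30 genes for transmitter synthesis and transport 5 rose (16.7%) and 1 fell (3.33%), against 6.47% and 0.85% of all genes. Of 49 transmitter receptor genes 5 rose (10.2%) and 2 fell (4.08%), and relative to the median gene the balance turned to 4 higher and 5 lower. Of 43 synapse and secretion genes 4 rose and none fell, and none passed relative to the median gene.

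Gria1, an ionotropic glutamate receptor, had the largest rise of the receptors, from 3.5 to 26.2 CPM (7.49-fold, 4.62 to 12.7), and went on to 54.1 CPM at 60 hpf. At 56 hpf it was found in 6.5% of cells with posterior ectoderm markers and in 0.69% of other cells, and in 0 of 238 cells with neural markers. That 0 allows up to 1.54% of these thinned cells to hold a UMI of it (Clopper-Pearson), and at 500 UMIs per cell sets no limit on how many express it. Gabbr1_2, a GABA-B receptor by name, fell from 39.4 to 16.9 CPM. Trpc5, a cation channel, rose from 5.61 to 21.9 CPM, and Trpc5_2 had 9.11 and 3.58 CPM with 17 of 52 UMIs at 48 hpf in 1 cell, which turned its direction when the 3 top cells were left out.

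Cells carrying neural markers became more frequent. A cell was counted for a class when, thinned to 500 UMIs, it held UMIs of at least 2 different markers that the study lists for the class. For neurons these were CalmL1, Secrtag and Syt4, of which CalmL1 was found in 94.9% and 92.3% of all cells at the 2 ages, so the count rested on Secrtag, a secretogranin-like vesicle gene, and Syt4, a synaptotagmin. Such cells made up 3.7% of cells at 48 hpf (151 of 4080) and 6.62% at 56 hpf (238 of 3597), with intervals that did not overlap, and 6.4% at 60 hpf. Secrtag went from 3.63% to 6.39% of cells, from 301 to 519 CPM, and Syt4 from 1.59% to 2.31%.

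Some genes named for the rise of their sums were also compared within the neural-marker cells. That choice favours a higher share at 56 hpf in the cells that hold them. Vacht was in 3 of 151 of them at 48 hpf (1.99%, 0.411% to 5.7%) and in 27 of 238 at 56 hpf (11.3%, 7.61% to 16.1%), against 0.102% and 0.179% of other cells. Phox2 was in 3.31% and then 13.4% of them, against 0.331% and 0.744% of other cells. Tuba1c_2, an alpha tubulin gene, was at 40.1 and 96.6 CPM and found in 27.7% of neural-marker cells and 0.893% of others at 56 hpf. Relative to the median gene Tuba1c_2 was under 2-fold. Mif4, a pigment cell marker, was in 1.99% of neural-marker cells at 48 hpf and 11.8% at 56 hpf. Cells counted in both the neural and the pigment set numbered 1 and 6. Whether this Mif4 signal was free RNA, mixed cells or expression was not tested, nor was its part in these shares.

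The genes found together with Phox2 were compared between the ages. NeuroD, a proneural factor gene, was in 11 of 18 Phox2 cells at 48 hpf (61%, 36% to 83%) and in 10 of 57 at 56 hpf (18%, 8.7% to 30%), against 0.763% and 0.424% of other cells. These intervals did not overlap, which held for no other gene picked with Phox2. NeuroD was among the most enriched genes at both ages, and its share at 48 hpf rested on 18 cells. Hb9 was in 5 of 18 and 8 of 57, and Smadip in 7 of 18 and 9 of 57. Shox was in 1 of 18 and 6 of 57, and Arxl and Brn1/2/4 were each in 0 of 18 and 6 of 57, where 0.0282% to 0.169% of other cells at 56 hpf held them. Vacht was in 0 of 18 and 7 of 57. For these 6 genes the intervals of the ages overlapped, so no difference was detectable at this depth. The genes were picked by their enrichment at either age, which favours a higher share at the age of the pick.

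**Figure D3:**
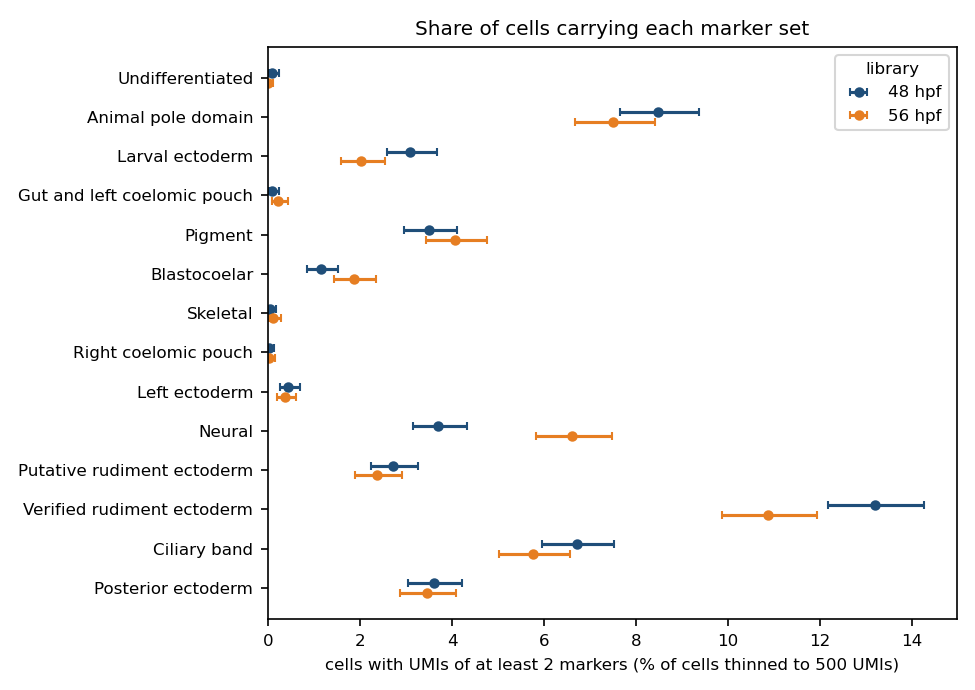
Share of cells, thinned to 500 UMIs, with UMIs of at least 2 markers of each class (x axis, percent, with exact binomial 95% intervals) at 48 and 56 hpf for 14 classes (y axis). The intervals of neural (3.7% and 6.62%), larval ectoderm (3.09% and 2.03%) and verified rudiment ectoderm (13.2% and 10.9%) do not overlap between the ages, and those of the other 11 classes do.

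Some genes found in pigment-marker cells rose, while 3 markers that the study lists for these cells did not. Mif4 had 1021 and 981 CPM at 48 and 56 hpf (0.961-fold), Pks1 the 33.3 and 38.2 CPM given above, and Hox11/13c HER_21404 56.9 and 81.6 CPM (1.43-fold). Cells with at least 2 pigment markers made up 3.5% (143 cells) and 4.06% (146 cells), with overlapping intervals. Opsin2, a light receptor gene, had 74.3, 182 and 218 CPM at 48, 56 and 60 hpf (2.45-fold, 2.17 to 2.76, just under 2-fold relative to the median gene). Within the pigment-marker cells it was in 38 of 143 (26.6%, 19.5% to 34.6%) and then in 70 of 146 (47.9%, 39.6% to 56.4%), against 1.91% and 3.01% of other cells. Chrna7-3, a nicotinic acetylcholine receptor subunit by name, had 31.5 and 80.1 CPM, and was in 21.7% and then 43.2% of the same cells and in 0.737% and 1.77% of others. Opsin2 and Chrna7-3 were named for the rise of their sums, which favours a higher share at 56 hpf.

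Maoa_2, a monoamine oxidase, had 131, 31.5, 7.01, 50.6 and 101 CPM in order of age. Its 48 hpf level was the lowest of the 5, and it rose 7.21-fold to 56 hpf (5.13 to 10.4). It was in 2 of 143 and then 23 of 146 pigment-marker cells, and in 3 of 113 and then 32 of 174 cells with Opsin2. Maoa_2 too was named for its rise, which favours higher shares at 56 hpf. Of 25 genes on a list for pigment synthesis and its regulators, 3 rose (12%, where 6.47% of all genes did) and none fell, namely MifL1 HER_37992 (20.3 to 56.8 CPM), Fmo5_4, a flavin monooxygenase (2.63 to 8.82), and Sult1c_3, a sulfotransferase (2.8 to 7.87). At 56 hpf MifL1 HER_37992 was in 1.37% of pigment-marker cells and 3.36% of other cells, and in 5.93% of animal pole cells. Srcr142, a scavenger receptor gene found in 6.29% of pigment-marker cells at 48 hpf and 0.508% of others, fell from 12.8 to 5.25 CPM.

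Among the markers that the study lists for blastocoelar cells, members of 1 gene family rose and the others did not pass 2-fold. The feature HER_40156 belongs to a family of highly variable secreted immune effectors known from sea urchins, and it had 60.1, 71.5, 99.2, 300 and 208 CPM in order of age (3.02-fold from 48 to 56 hpf, 2.74 to 3.35). Thinned cells with it went from 2.25% to 4.81%. Cells marked for other classes also held it more often, with 0.929% and 4.09% of verified rudiment cells (intervals that did not overlap) and 1.16% and 3.7% of animal pole cells. The pigment marker Mif4 was in 2.23% and 1.53% of the same rudiment cells and in 4.91% and 3.33% of the animal pole cells, with overlapping intervals. The part of free RNA in these shares was not tested. The other copies HER_22246 (4.38 to 16.5 CPM) and HER_22245 (2.98 to 7.15 CPM, under 2-fold relative to the median gene) rose too, but since copies of this family are near-identical each value is uncertain by itself. Astacin4 HER_45847 had 211 and 303 CPM (1.43-fold), Scl, a transcription factor gene, 36.6 and 35.1 CPM (0.957-fold), and the features named Irf4 together 2 UMIs at each age. Without the 3 top cells of each library, which held 116 of the 209 Scl UMIs at 48 hpf, the Scl ratio turned to 1.39-fold (1.03 to 1.87). Cells with at least 2 blastocoelar markers made up 1.15% and 1.86%, with overlapping intervals, and 2.51% at 60 hpf.

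Cyp2L62, a cytochrome P450, rose 5.08-fold from 17.7 to 89.9 CPM (4.07 to 6.39) and reached 115 CPM at 60 hpf. It was in 29.9% of the 67 blastocoelar-marker cells at 56 hpf and in 1.76% of others. Mmp18/19L5, a matrix metalloproteinase listed with skeleton genes, rose from 23.3 to 57.5 CPM (2.47-fold, 1.99 to 3.07) and was in 38.8% of blastocoelar-marker cells and 0.85% of others. Astacin2, a secreted metalloprotease, had 3.5 and 84.7 CPM (log2 ratio 4.59, lower bound of the fold 15.4), with its 355 UMIs at 56 hpf in 29 cells and 36 of them in the top cell. Its ratio was larger without the 3 top cells, at 5.84 on the log2 scale.

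Of 130 immune genes compared 15 rose (11.5%) and 1 fell (0.769%), against 6.47% and 0.85% of all genes and with 9 higher and 3 lower relative to the median gene. The list had a median log2 ratio 0.20 above that of all genes. The list is broad, and 7 of the 15 were Nlr genes, which encode intracellular pattern receptors, with levels from 7.39 to 38.4 CPM at 56 hpf. None of the 58 Nlr genes passed 2-fold beyond counting error. Prps1_1, a phosphoribosyl pyrophosphate synthetase, rose 4.59-fold from 71.1 to 326 CPM (4.1 to 5.14) and reached 540 CPM at 60 hpf, and at 56 hpf it was in 4.14% of thinned cells with 4.3 UMIs per positive cell. Cr1L, a complement receptor gene by name, rose from 4.38 to 28.1 CPM, Rdh8_1, a retinol dehydrogenase, from 2.98 to 21.7 CPM, and Agpat1, an enzyme of phospholipid synthesis, from 0.876 to 9.78 CPM.

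Nodal fell together with Not and Univin. Nodal, the ligand that patterns the oral side, had 52.2, 35.7, 23.7, 5.25 and 5.11 CPM in order of age, and fell to 0.222 of its 48 hpf level by 56 hpf (0.135 to 0.35, 135 and 22 UMIs). Its UMIs were spread over 113 and 22 cells, with at most 3 in a cell. Not, a homeobox gene downstream of Nodal in sea urchins, had 68.7, 47.7, 34.5, 8.82 and 8.16 CPM (0.256-fold across the step, 0.175 to 0.365). Univin, a TGF-beta ligand that is needed for Nodal expression in sea urchin embryos, fell from 18.6 to 6.44 CPM (0.347-fold, 0.218 to 0.533). For all 3, the level at 56 hpf was within 1.5-fold of that at 60 hpf.

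No other gene of the TGF-beta and BMP list fell. Of 38 compared, 3 fell (the 3 just named, 7.89%, where 0.85% of all genes did) and 2 rose (5.26%), Grem from 12.6 to 29.6 CPM and Bmp5-8 HER_18968 from 4.56 to 9.78 CPM, both under 2-fold relative to the median gene. On that scale 4 of the 38 were lower. The more abundant Bmp5-8 feature, HER_9178, had 121 and 107 CPM. The median of the list was 0.05 below that of all genes. Cells with at least 2 markers of larval ectoderm, a set that holds Nodal and Univin among its 6 markers, made up 3.09%, 2.03% and 2.7% from 48 to 60 hpf. The most frequent marker of the set, SoxB2, was in 14.9% of cells at 48 hpf and 10.6% at 56 hpf. Nodal was in 1.15% and 0.278%, while Gsc was in 0.417% and 0.89%.

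In the Notch pathway, Hey HER_37767, a bHLH target gene, rose from 3.85 to 17.6 CPM (4.58-fold, 2.81 to 7.74) and reached 29.1 CPM at 60 hpf, in 72 cells with at most 2 UMIs each at 56 hpf. Another feature named Hey, HER_22398, had 33.5 and 17.6 CPM, so the name did not move one way. Mib1_1, named for a ubiquitin ligase that acts on Notch ligands, had 3.15 and 7.39 CPM, under 2-fold relative to the median gene. These were the 2 of 11 Notch genes that rose, and relative to the median gene 1 was higher and 2 lower. Among 32 Wnt genes only the receptor Fzd1/2/7 passed 2-fold (6.31 to 14.8 CPM), and it was under 2-fold relative to the median gene. None of 16 Hedgehog and FGF genes, 5 Hox and ParaHox genes, 13 gut and coelom genes, 12 muscle genes, 7 germline genes or 6 Sox genes passed 2-fold in either direction on CPM. Relative to the median gene 1 was lower in each of the Hedgehog and FGF, gut and coelom, and Sox lists. Of 38 compared features that carry names of transcription factors put forward by the study for the rudiment, 2 rose (Hey, and Z421, which was under 2-fold relative to the median gene) and 1 fell (Acsc). Relative to the median gene 1 was higher and 3 lower. The study chose those factors on these libraries, so the count is not independent of them.

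**Figure D4:**
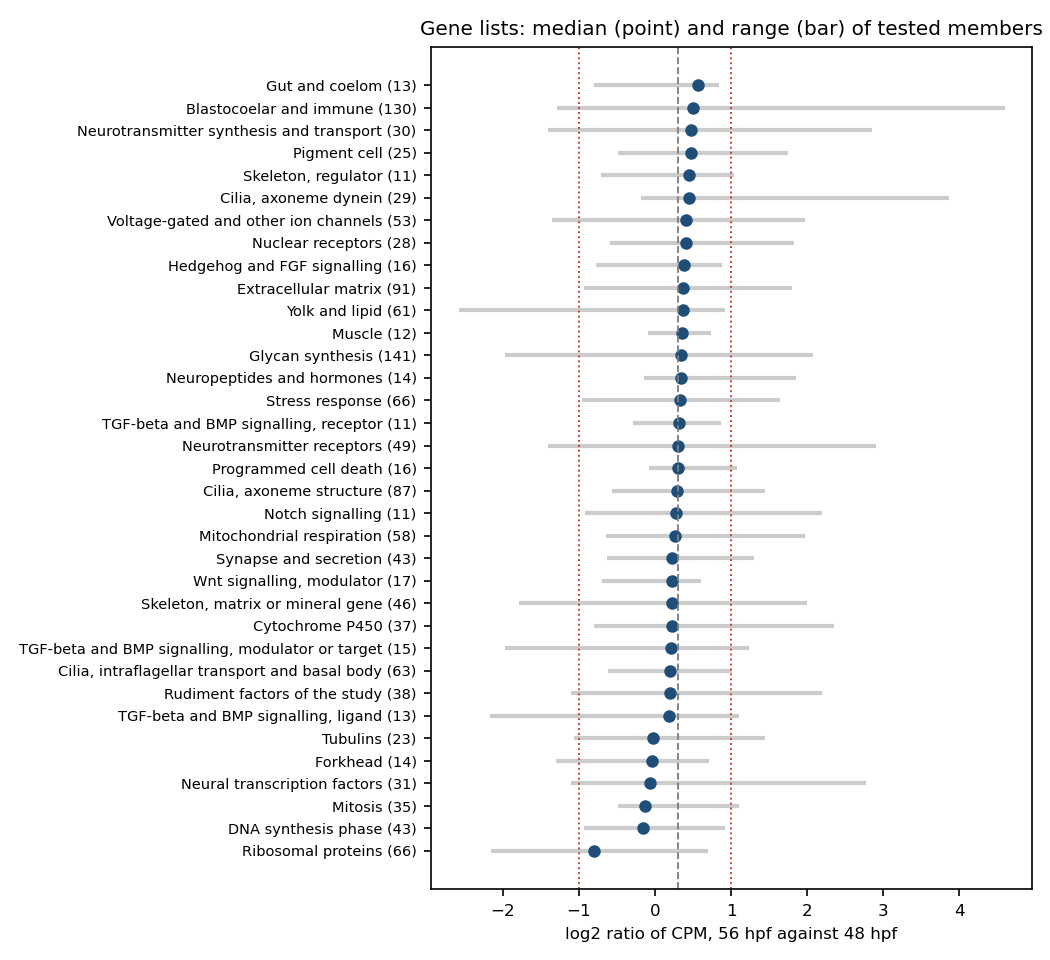
Log2 ratio of CPM at 56 hpf against 48 hpf (x axis) for lists with at least 10 compared genes (y axis, number of genes in parentheses); points are medians and bars run from the lowest to the highest member. The dashed line is the median of all genes (0.30) and dotted lines mark 2-fold. The ribosomal protein list lies lowest with a median of -0.80, followed by the DNA synthesis, mitosis and neural transcription factor lists, and the other medians lie closer to the dashed line.

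Ribosomal protein genes, which encode the structural proteins of the ribosome, were lower as a group. They took 23.98%, 16.5%, 11.5% and 14.2% of the UMIs from 42 to 60 hpf, so the 56 hpf library was the lowest of the 5. The median cell had 12.98% at 48 hpf and 8.63% at 56 hpf. Of 66 compared, 19 fell (28.8%, where 0.85% of all genes did), 17 of them beyond counting error, and none rose. Relative to the median gene 39 were lower, where 2.27% of all genes were. The median log2 ratio was -0.80, which is 1.11 below the median of all genes, and 61 of the 66 lay below that median. Ribosomal protein genes thus made up 17 of the 37 genes that fell beyond counting error.

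The fall was uneven among subunits and among copies. Rpl13 fell from 796 to 220 CPM (0.276-fold, 0.257 to 0.296) and stayed at 259 CPM at 60 hpf. Rpl7a fell from 430 to 138 CPM and was at 121 CPM at 60 hpf. Rpl34 HER_8482, in contrast, went from 139 to 40.8 and back to 135 CPM, and Rpl28 HER_9122 from 29.8 to 6.68 and back to 48.9 CPM. Both are minor copies, and the abundant copies moved less, Rpl34 HER_24588 from 3912 to 2314 CPM and Rpl28 HER_47850 from 5612 to 4161 CPM. Among abundant genes that fell, Rps7 went from 1937 to 761 CPM and Rps19 from 2143 to 803 CPM. Rps2 did not fall, with 354 and 449 CPM. Of the 66 genes, 51 were lower at 56 hpf than at 60 hpf. Drps27a HER_18599, whose name points to the ubiquitin-ribosomal fusion protein S27a, fell from 111 to 24.3 CPM, and its abundant copy HER_18604 from 1646 to 687 CPM.

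The lower share was found in every class of cell that could be examined. In each of the 8 marker sets with at least 50 cells at both ages, the median ribosomal share was lower at 56 hpf than at 48 hpf. It went from 8.62% to 5.36% in animal pole cells, from 12.3% to 8.1% in neural cells, from 10.1% to 6.95% in pigment cells and from 27.2% to 19.2% in cells with putative rudiment markers. In all 8 it was higher again at 60 hpf. In the same 8 sets it was also lower at 48 hpf than at 42 hpf. Depth per cell, which was lowest at 56 hpf, moved with this result, and its part was not tested.

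Translation factors did not follow. Of 51 initiation and elongation factor genes, a list added after the data were seen, none rose and 1 fell, Eif2g from 83.9 to 41.3 CPM, and their median log2 ratio was 0.15 below that of all genes. Relative to the median gene 2 were lower and none higher.

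**Figure D5:**
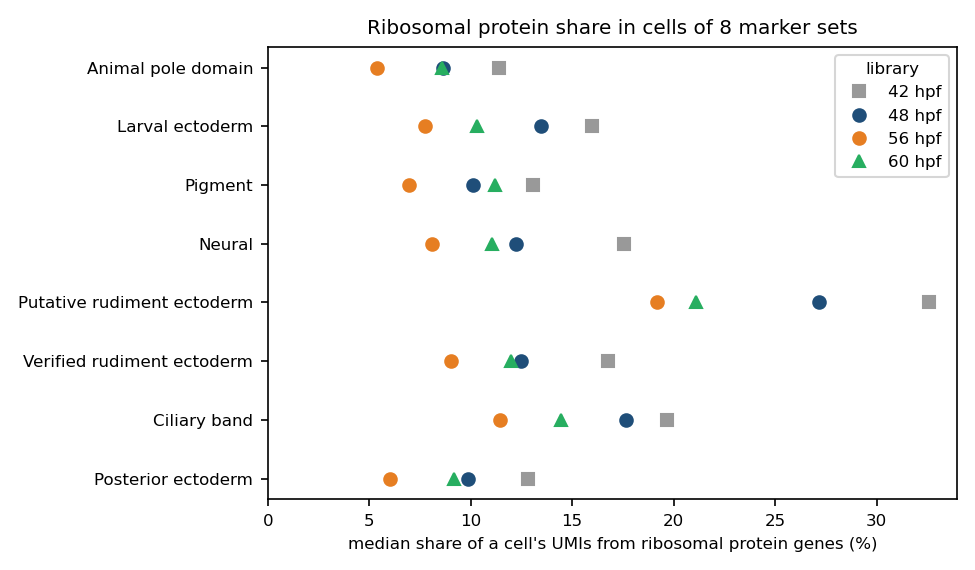
Median share of a cell's UMIs that came from ribosomal protein genes (x axis, percent) in cells of the 8 marker sets with at least 50 cells at 48 and 56 hpf (y axis), at 42, 48, 56 and 60 hpf. In each set the 56 hpf point lies left of the points at 48 and 60 hpf, from 5.36% in animal pole cells to 19.2% in putative rudiment cells.

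Some mitochondrial genes, picked as higher at 56 than at 48 hpf, were higher at 56 hpf than in the other 4 libraries. Of 58 genes of respiration, 11 rose (19%, where 6.47% of all genes did) and none fell, and 5 were higher relative to the median gene, but the median of the list was 0.04 below that of all genes, so most did not move with them. Atp5l, a subunit of the ATP synthase, had 99.7, 43.3, 50.1, 151 and 54.7 CPM in order of age in feature HER_32387 (3.02-fold across the step, 2.62 to 3.48). A second Atp5l feature, HER_42827, had 141.9, 73.6, 68.5, 193 and 61.3 CPM, while the most abundant one, HER_42813, had 538 and 484 CPM at 48 and 56 hpf. Reads may have been divided among these copies. Cox5b, a cytochrome oxidase subunit, had 111, 81.9, 62.2, 155 and 60.1 CPM, and Ndufv2 HER_44742, a complex I subunit, 13.02, 5.68, 4.38, 17.2 and 6.02 CPM.

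The 11 were lower at 48 hpf by the way they were picked, which also favours a peak at 56 hpf. All 11 were lower at 60 hpf too, at levels within 1.5-fold of those at 48 hpf. Summed over the 100 features of the list, the level was 15202, 13175 and 11585 CPM at 48, 56 and 60 hpf. All 11 had their highest level at 56 hpf and were also higher at 36 hpf than at 42 or 48 hpf. Atp5l HER_32387 was in 2.7% and 6.56% of thinned cells with a mean of 1.01 and 1.04 UMIs per positive cell, and was found in all large marker sets, with 11.6% of pigment-marker cells and 6.35% of others at 56 hpf. Other subunits went down, among them Uqcrc2 (716 to 457 CPM) and Sdhb (730 to 478 CPM), neither by 2-fold. Ribosomal share and these genes both set the 56 hpf library apart from the 48 and 60 hpf libraries, and whether that belongs to the age or to the library cannot be told apart with 1 library.

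Genes of cell division lay low but few passed 2-fold. Of 43 replication genes none passed 2-fold in either direction on CPM, and 4 were lower relative to the median gene. Their median was 0.46 below that of all genes. The lowest were Mcm7, a subunit of the replicative helicase, with 79.0 and 41.3 CPM, and Slbp, which binds histone mRNA, with 45.2 and 23.6 CPM. Of 35 mitosis genes 1 rose, Ckap2L (3.33 to 7.15 CPM, under 2-fold relative to the median gene), with a median 0.44 below that of all genes. FoxM, a regulator of mitotic genes, fell from 15.9 to 6.44 CPM (0.404-fold, 0.253 to 0.626) and was at 6.43 CPM at 60 hpf, the 1 of 14 forkhead genes past 2-fold on CPM. Relative to the median gene 3 of the 14 were lower. Of 25 histone genes under early and late histone names, a list added later, 3 fell and 2 rose. Relative to the median gene 5 were lower and none higher. EhH3_57, an early histone H3 name shared by several features, fell from 41.4 to 11.9 CPM in one of them.

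Of 61 genes for yolk and lipid use 4 fell (6.56%, where 0.85% of all genes did) and none rose. Relative to the median gene 5 were lower. Pnliprp1, a lipase-related gene, fell from 52.6 to 19.6 CPM (0.372-fold, 0.288 to 0.476), and Yp303 HER_1559, named as a yolk protein, from 12.6 to 5.25 CPM, 1 of 2 Yp303 features to fall among 7 compared. The largest of the 4, YP30/FascL, rested on 1 cell as described above. The median of the list was 0.06 above that of all genes.

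A few genes outside these themes fell in ectodermal cells or in the sums. Clect/Scop/7Tm, whose name joins C-type lectin and receptor domains and which the skeleton list caught by its lectin name, had 157, 328, 94.7 and 161.7 CPM from 42 to 60 hpf (0.289-fold across the step, 0.259 to 0.322). It was in 27.7% of animal pole cells at 48 hpf and 7.04% at 56 hpf, and in 24.5% and 8.87% of posterior ectoderm cells. Its choice by the fall of its sum favours lower shares at 56 hpf. AspL_1 had 55.8, 90.6, 25.5 and 50.9 CPM over the same ages, a like course with its highest level at 48 hpf. Actb_2, an actin gene, fell from 31.0 to 7.87 CPM and was at 31.6 CPM at 60 hpf.

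Of 57 skeleton genes 6 rose (10.5%) and 3 fell (5.26%), against 6.47% and 0.85% of all genes, and relative to the median gene the balance turned to 4 higher and 7 lower. Mitf, a transcription factor on its list of regulators, had 39.9 and 82.0 CPM, under 2-fold relative to the median gene, while Timp2, a metalloproteinase inhibitor by name, fell from 13.1 to 4.29 CPM. Most of the others were C-type lectins by name, among them Clect_116 (2.8 to 11.2 CPM), and the marker set of skeletal cells held 2 and 4 cells.

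Of 91 extracellular matrix genes 11 rose (12.1%, where 6.47% of all genes did) and none fell, 2 of them beyond counting error, and relative to the median gene 5 were higher and 5 lower. Fn3_4, a fibronectin-repeat gene, had 11.2, 34.3 and 6.92 CPM from 48 to 60 hpf (3.06-fold, 2.27 to 4.18). Of 141 genes on a glycan synthesis list 16 rose (11.3%) and 1 fell (0.709%), with 5 higher and 2 lower relative to the median gene. Fut8_3 HER_13058, a fucosyltransferase, was among those that rose (6.31 to 19.8 CPM). The 1 that fell was Ars HER_49825 (10.3 to 2.62 CPM), an arylsulfatase and so not a synthesis enzyme by name. Its abundant copy HER_49824 had 14512 and 8572 CPM. The medians of the 2 lists were 0.06 and 0.04 above that of all genes.

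Nuclear receptors are transcription factors that include the receptors for thyroid-type hormones. Of 28 compared 3 rose (10.7%) and none fell. Thredh, which the list caught by its name, had 7.36, 26.0 and 17.4 CPM at 48, 56 and 60 hpf (3.53-fold, 2.45 to 5.17). It was the only gene of the list to rise beyond counting error, and whether it encodes a nuclear receptor was not checked. Thr_1 HER_21220, named for a thyroid hormone receptor, rose from 2.8 to 7.39 CPM. Nr5a, the most abundant of the 3, had 194 and 394 CPM (2.03-fold, 1.88 to 2.19, under 2-fold relative to the median gene), and its positive cells went from 9.04% to 17.6% of thinned cells.

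Beside the dynein light chains, ciliary genes held their place. Of 179 compared 10 rose (5.59%, where 6.47% of all genes did), 4 of them the Dynlc2 copies, and none fell, with a median 0.02 below that of all genes. Atub13, an alpha tubulin that marks the ciliary band, had 4 compared features of which HER_35856 fell from 57.1 to 27.2 CPM and the most abundant, HER_35876, had 2325 and 1861 CPM. Of 66 stress genes 4 rose (6.06%), among them the chaperone Hsp901 (46.6 to 107 CPM, under 2-fold relative to the median gene) and Hsp701A (4.21 to 13.1 CPM), and of 16 cell death genes 2 rose.

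Beside the neural and larval ectoderm sets, only the verified rudiment ectoderm set had intervals at 48 and 56 hpf that did not overlap. Cells with at least 2 markers of the verified rudiment ectoderm made up 13.2%, 10.9% and 14.0% from 48 to 60 hpf. The drop at 56 hpf followed Egfi, which was in 27.03% and 23.2% of cells, and Fn3/Egf_2, which was in 28.8% and 19.96%, while Msx, Dlx and Wnt3, the transcription factor and ligand markers of the same set, were in as many or more cells at 56 hpf (2.79% and 3.7%, 3.26% and 4.56%, 1.84% and 2.53%). Animal pole cells (8.48% and 7.51%), ciliary band cells (6.72% and 5.75%) and posterior ectoderm cells (3.6% and 3.45%) had overlapping intervals. Skeletal, gut and coelomic marker sets held 1 to 8 cells at each age and were too small to compare, and 2393 of 4080 and 2158 of 3597 cells carried no class.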

How the data were processed

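The deposited matrices hold whole-number UMI counts per gene and barcode, which the authors made with Cell Ranger 3.1.0, and per the labels Seurat 4.0 was used downstream. Of 38707 features 31710 carry a symbol in the feature table, several features can share one, and no genome or annotation was used here. The study's limits on cells (a minimum of 200 genes, maxima of 10000 UMIs and 4000 genes) removed 3 to 23 barcodes per library. Doublets were not called and cells were not clustered. Counts were summed per library (python 3.11.15, numpy 2.4.6, pandas 2.3.3, scipy 1.17.1, figures with matplotlib 3.10.9). Ratios of CPM carry exact conditional binomial intervals and shares of cells Clopper-Pearson intervals, at 95%. UMIs are molecules, but intervals cover counting error only. A gene with 0 UMIs in 1 library was taken at 3 UMIs there, which is 0.526 CPM at 48 hpf and 0.715 CPM at 56 hpf. For shares, 500 UMIs were drawn at random from each cell, so that 509 shallower cells at 56 hpf dropped out and 0 at 48 hpf. The calculations were tested on simulated data.

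Genes were named by rule: the 15 highest and 15 lowest with a functional symbol, ranked by the interval bound nearest to no change, up to 3 in each direction per list among those past 2-fold, and the genes stained by the study. Other genes named, companion genes and Hypp_42 among them, were chosen after their values were seen. The lists, markers and members were chosen with earlier results of these data known, and 5 lists were added later. The marker lists come from the study, and btub13 and fbs-2 matched no feature. Alternatives were all barcodes, a minimum of 500 genes, median of ratios (DESeq2 1.42.0) and TMM (edgeR 4.0.16) factors in R 4.3.3, totals without ribosomal proteins, a minimum of 20 CPM or none, a pseudocount of 5 CPM, equal weight per cell, thinning, centring on the median gene, and leaving out the 3 top cells of each gene; the last 2 were chosen after seeing the data.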

Additional observations from a re-analysis of the deposited data

How the results depend on the processing

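No paired analysis was possible because each age has 1 library. The numbers of genes past 2-fold moved with scaling and filter. Both median of ratios and TMM factors gave 231 higher and 254 lower genes (60 and 98 beyond counting error), and centring on the median gene, chosen after seeing the data, gave 256 and 235 (62 and 87), against 670 and 88 (135 and 37) on CPM. A minimum of 20 CPM left 168 and 42 (61 higher beyond counting error) of 5427 genes, no minimum gave 4465 and 1901 of 22562, a pseudocount of 5 CPM gave 182 and 44, and thinned cells gave 1069 and 133 (75 higher beyond counting error). The ribosomal protein median of -0.80 became -1.14 with either set of factors, -1.11 centred and -0.89 with these genes left out of the total. Those settings shift all genes alike, so the distance of the list from the other genes could not change. With no minimum, which can change it, the list median was -0.74 and that of all genes 0.38. Of 99 named genes past 2-fold, 77 were past it with either set of factors, 78 centred, 85 in thinned cells, 88 in cells with over 500 genes and 61 with the pseudocount.

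Directions turned for few results. Among genes past 2-fold, Tmtc3 was at 0.31 and Strongylocin2 at 0.030 (log2) in cells with over 500 genes. Without the 3 top cells of each gene Tmtc3 was at 0.60, Strongylocin2 at 0.018, Trpc5_2 at 0.73 and PlgL2 at -0.14. The share of neural-marker cells fell by 2.27 percentage points when 1 marker was enough and fell by 6.84 points for 2 UMIs summed over markers, both counts being made up mostly of cells with CalmL1. Depth limits low genes most, since 3 UMIs were worth 0.526 and 0.715 CPM.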

Other observations

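Cells with the immune feature HER_40156, counted after thinning to 500 UMIs, numbered 92 at 48 hpf and 173 at 56 hpf. Of the genes picked as found with it, 3 differed in share between the ages. Msp130r4, named for a biomineralization protein family, was in 26% and then 8% of them, CubnL_6, named for the endocytic receptor cubilin, in 24% and 9%, and Cycpln, a cyclophilin by name, in 28% and 10%, and the intervals of the 2 ages did not overlap for any of the 3. All 3 were among the genes most enriched at 48 hpf, a choice that favours a lower share later. Astacin4, a blastocoelar marker, was in 42 of the 92 and 61 of the 173. Its intervals overlapped, as did those of the other genes picked. These genes were picked by their enrichment after the values were seen, and no cause was tested.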
